A study of Mus musculus with 17 samples.

Results

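The transcripts of 10 cytokine genes were followed across primary tubular epithelial cells (PTEC) and aging kidneys of the mouse. They are Il1a, Il1b, Il18 and Il33 of the interleukin-1 family, Il6, Lif and Il11 of the interleukin-6 family, Csf1 and Il34, whose proteins are the ligands of the CSF1 receptor, and Tnf. The genes were taken by symbol, and all 10 were found among the 53313 gene identifiers common to the 17 count files. The study had sequenced RNA from 8 PTEC cultures and 9 kidneys to ask how senescent tubular cells and aged kidneys differ from their young counterparts. PTEC were grown out of collagenase-digested mouse kidneys. Non-senescent PTEC were 4 cultures without irradiation, labelled day 6. Senescent PTEC were 4 cultures labelled day 16 that had received 10 Gray of γ-irradiation once confluent, so that irradiation and the days in culture cannot be told apart. Kidneys came from male mice of 3, 12 and 24 months, 3 at each age, as pieces of the right kidney with all its cell types. The labels give C57BL/6Rj and wild type for all 17 samples.

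Cells that have left the cell cycle for good after damage secrete a mixture of cytokines, growth factors and proteases known as the senescence associated secretory phenotype, or SASP. In the textbook form of it, IL-1α on the cell surface drives NF-κB, which raises IL-6 and other secreted factors. IL-1β and IL-18 are made as inactive precursors that caspase-1 cleaves, whereas IL-1α and IL-33 are active as released from dying cells. IL-6, LIF and IL-11 signal through the shared chain gp130 (Il6st) to JAK kinases and STAT3. CSF1 and IL-34 keep macrophages alive through the same receptor, and tubular cells of the kidney are a known source of both.

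The PTEC libraries held 26963442 to 35409144 counted reads and the kidney libraries 37311247 to 66894790, more with each age. Expression is given as CPM, the read count of a gene scaled to library size with TMM factors, set separately for PTEC and kidneys. Calls of up- or down-regulation came from edgeR's quasi-likelihood test and needed both an adjusted p below 0.05 and a log2 fold change beyond 0.5 in either direction. Every adjusted p below is from that test unless DESeq2 is named. The labels do not say whether the PTEC cultures came from separate mice, so for PTEC the p-values measure the spread between cultures. Proximal tubule markers were far lower in PTEC than in kidneys: the sum over 10 markers was 229 to 829 CPM in non-senescent PTEC and 44547 to 45869 CPM at 3 months, and 7 of the 10 reached a mean of 1 CPM in non-senescent and 5 in senescent PTEC. Cdkn1a, which encodes the cell cycle inhibitor p21, was at 313 ± 75.4 CPM in non-senescent and 772 ± 115 CPM (SD, n = 4) in senescent PTEC.

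The stretches of DNA just upstream of 5 of the genes are shown because the transcripts of these genes differed between groups in the comparisons below, the first 4 in PTEC and Lif in kidneys. They are the 250 bases before the start site in RefSeq (GRCm38.p6), read 5′ to 3′ on the strand of the gene. Capitals mark matches, on either strand, to an NF-κB consensus, to the AP-1 motif TGANTCA or to the TATA motif TATAAA.
Csf1 (chr3:107760470-107760719, minus strand): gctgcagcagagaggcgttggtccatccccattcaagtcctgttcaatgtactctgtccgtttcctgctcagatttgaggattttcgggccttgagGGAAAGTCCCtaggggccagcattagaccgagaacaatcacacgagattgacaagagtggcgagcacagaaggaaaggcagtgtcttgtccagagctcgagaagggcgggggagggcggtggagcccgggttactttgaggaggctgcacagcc
Il18 (chr9:50554450-50554699, plus strand): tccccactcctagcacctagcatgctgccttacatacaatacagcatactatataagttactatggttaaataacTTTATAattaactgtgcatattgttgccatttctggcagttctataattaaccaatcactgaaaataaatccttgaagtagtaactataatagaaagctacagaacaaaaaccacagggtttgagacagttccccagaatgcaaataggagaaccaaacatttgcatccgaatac
Tnf (chr17:35202008-35202257, minus strand): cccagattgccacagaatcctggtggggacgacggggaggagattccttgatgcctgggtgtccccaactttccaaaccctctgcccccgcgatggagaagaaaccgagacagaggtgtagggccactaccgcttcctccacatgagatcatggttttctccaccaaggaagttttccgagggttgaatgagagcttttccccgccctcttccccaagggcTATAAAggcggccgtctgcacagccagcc
Il33 (chr19:29924863-29925112, plus strand): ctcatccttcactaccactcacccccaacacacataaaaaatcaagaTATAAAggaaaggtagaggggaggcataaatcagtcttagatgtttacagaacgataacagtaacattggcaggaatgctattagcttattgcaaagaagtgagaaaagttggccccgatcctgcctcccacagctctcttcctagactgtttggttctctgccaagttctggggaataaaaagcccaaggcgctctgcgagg
Lif (chr11:4257318-4257567, plus strand): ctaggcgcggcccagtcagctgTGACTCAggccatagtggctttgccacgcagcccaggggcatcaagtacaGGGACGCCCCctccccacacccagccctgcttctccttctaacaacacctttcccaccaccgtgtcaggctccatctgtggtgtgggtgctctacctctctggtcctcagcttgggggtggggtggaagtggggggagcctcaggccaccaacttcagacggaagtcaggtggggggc

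In these windows the capitals of Csf1 are an NF-κB match from 154 to 145 bases before the start, on the opposite strand. Lif held an NF-κB match from 178 to 169 bases before its start and an AP-1 match from 228 to 222. Tnf held TATAAA from 29 to 24 bases before its start, and Il33 and Il18 held it at 203 to 198 and, on the opposite strand, 175 to 170 bases. A second RefSeq start of Il33 had TATAAA from 29 to 24 bases before it. Among the members not shown, Il6 held an NF-κB match from 44 to 35 bases and an AP-1 match from 249 to 243 bases before its start, Il1a an AP-1 match and TATAAA, Il1b TATAAA, and Il11 an AP-1 match at one of its 2 starts. Of the 10 genes, 9 had an entry, Il34 being the exception. Among all 32851 RefSeq promoter windows of this length, 7.25% held the NF-κB consensus, 6.75% the AP-1 motif and 12.4% TATAAA. The motifs do not overlap each other in the printed windows. A match says that the letters are there and does not show that a factor binds.

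In senescent PTEC, Csf1 and Il18 transcripts rose and Il33 and Tnf transcripts fell. Of the 10 genes, 7 had enough counts to be tested, and among these 2 were up-regulated and 2 were down-regulated. Among all 15434 tested genes the shares were 20.1% up and 19.7% down, and the number of calls among 7 genes is too small to be set apart from these shares. The tested cytokines had a median log2 fold change of 0.42, against -0.0020 for all tested genes, and ran from -1.79 to 2.0. The quartiles of all tested genes were -0.49 and 0.52, and the cytokine median lay between them. Il1a, Il1b and Il6, which stand at the head of the textbook SASP, were close to absent in both groups.

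Csf1 (ENSMUSG00000014599.10, chr3:107741048-107760469 of GRCm38) encodes the macrophage growth factor M-CSF. Non-senescent cultures held 190.3, 176, 177 and 178 CPM in replicates 1 to 4, and senescent cultures 499, 333, 453 and 599.5 CPM. Every senescent culture lay above every non-senescent one, and the non-senescent cultures were nearly equal while the senescent ones were spread. The means were 180.4 ± 6.71 and 471 ± 110.4 CPM (SD, n = 4), 2.61-fold apart, with a log2 fold change of 1.39 ± 0.177 (SE, adjusted p = 0.000282). Il34 (ENSMUSG00000031750.15, chr8:110741829-110805924), the other ligand of the same receptor, held 74.6, 69.2, 95.9 and 60.6 CPM in non-senescent and 106, 107, 104 and 85.6 CPM in senescent PTEC. Its non-senescent replicate 3 overlapped the senescent cultures. Its log2 fold change of 0.42 ± 0.157 (SE, adjusted p = 0.0522) did not pass the threshold. With the replicate number as a block the adjusted p of Il34 was 0.0130 and its log2 fold change 0.44, still under the fold threshold, and without non-senescent replicate 3 it was called, at 0.57 (adjusted p = 0.00569). Gm15895, an antisense gene that overlaps exons of Il34, was at 5.45 ± 1.38 CPM and 10.9 ± 1.63 CPM (SD, n = 4) in the same groups, and without a stated strand setting reads of such a pair cannot be told apart. Per kilobase of exon, the ratio of Csf1 to Il34 lay between 0.685 and 1.09 in the 4 non-senescent and between 1.15 and 2.60 in the 4 senescent cultures.

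Il18 (ENSMUSG00000039217.13, chr9:50554827-50581840) encodes an interferon-γ inducing cytokine. It was low in both groups, with 16, 28, 5 and 12 reads in the non-senescent and 64, 58, 86 and 58 reads in the senescent cultures. In CPM these were 0.492, 0.919, 0.196 and 0.443 against 2.06, 1.94, 2.32 and 2.0. The senescent cultures were close together and all above the non-senescent ones. The log2 fold change was 2.0 ± 0.381 (SE, adjusted p = 0.00246). Bco2, a gene on the opposite strand that overlaps the Il18 locus but shares no exon with it, was at 0.104 ± 0.0466 and 0.565 ± 0.0848 CPM (SD, n = 4). Il33 (ENSMUSG00000024810.16, chr19:29925114-29960718) encodes a nuclear alarmin. It was at 21, 18.6, 14.7 and 13.8 CPM in the non-senescent and at 6.56, 5.86, 8.89 and 8.67 CPM in the senescent cultures. All senescent cultures lay below all non-senescent ones. Il33 fell, with a log2 fold change of -1.18 ± 0.206 (SE, adjusted p = 0.00153).

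Tnf (ENSMUSG00000024401.14, chr17:35199381-35202007) encodes tumor necrosis factor. Its reads numbered 33, 34, 27 and 34 in the non-senescent and 6, 6, 19 and 10 in the senescent cultures, or 1.01, 1.12, 1.06 and 1.26 against 0.193, 0.201, 0.513 and 0.345 CPM. The groups did not overlap. Tnf fell, with a log2 fold change of -1.79 ± 0.340 (SE, adjusted p = 0.00237). In RNA from whole cultures, fewer cells that make a transcript and less of it per cell cannot be told apart. The sum of 8 pan-leukocyte markers was 28.5 to 52.3 CPM in non-senescent and 12.7 to 35.3 CPM in senescent PTEC, none of them at 0, and of the 7 tested 4 fell. The sum of 10 macrophage markers was 62.0 to 116 and 52.0 to 224 CPM, with 1 of 8 tested markers lower and none at 0. The sum of 6 neutrophil markers was 1.92 to 4.14 and 0.587 to 1.22 CPM, with 2 of the 6 at 0 and both tested ones called down. Of tubule markers, 4 of 4 tested of the loop of Henle and distal tubule, 3 of 4 of principal cells and 3 of 6 of the proximal tubule were called down in senescent PTEC. The sum of the 10 proximal tubule markers overlapped, at 229 to 829 (median 255) and 171 to 354 CPM (median 281). The sum of 6 intercalated cell markers was 1.41 to 7.23 and 1.97 to 11.1 CPM, and the 1 tested was not called. The sum of 9 fibroblast and pericyte markers was 81.5 to 170.0 and 597 to 1286 CPM, none of them at 0, and of the 8 tested 6 rose. The sum of 5 podocyte markers was 90.7 to 206 and 213 to 465 CPM, with 2 of 4 tested called up. The sum of 10 immediate early and heat shock genes, a list added after the data were seen, was 397 to 560.4 and 499.8 to 847 CPM, with 4 of 10 called up. These counts of calls are to be read against the 20.1% up and 19.7% down of all tested genes. The part of these cells and genes in the changes of Csf1, Il18, Il33 and Tnf was not tested. All of these 4 calls were kept when any single culture was left out, with log2 fold changes from 1.25 to 1.52 for Csf1, from 1.75 to 2.43 for Il18, from -1.28 to -1.07 for Il33 and from -2.15 to -1.62 for Tnf.

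Of the interleukin-6 family, Lif and Il11 were tested and did not pass. Lif (ENSMUSG00000034394.14, chr11:4257557-4272514), named for leukemia inhibition, was at 38.5, 34.3, 26.6 and 28.9 CPM in non-senescent and 30.5, 28.6, 56.6 and 60.0 CPM in senescent PTEC. Senescent replicates 3 and 4 were above all non-senescent cultures, and senescent replicates 1 and 2 were among them. Its log2 fold change was 0.45 ± 0.261 (SE, adjusted p = 0.188). Il11 (ENSMUSG00000004371.14, chr7:4772373-4782859), a cytokine known for its role in fibrosis, was at 15.6, 10.1, 4.71 and 2.99 CPM in non-senescent cultures, which alone spanned a range wider than the senescent values of 9.88, 7.97, 9.83 and 15.1 CPM. Its log2 fold change was 0.35 ± 0.453 (SE, adjusted p = 0.558). Il6 (ENSMUSG00000025746.11, chr5:30013114-30019981) had 1, 8, 2 and 2 reads in the non-senescent and 0, 3, 1 and 13 reads in the senescent cultures. Of the senescent reads of Il6, 13 of 17 came from replicate 4. Il1a (ENSMUSG00000027399.1, chr2:129299610-129309972) had 7, 4, 3 and 2 reads in non-senescent and 3, 5, 2 and 1 reads in senescent PTEC, and its exons overlap those of the antisense gene Gm14023, at 0.730 and 0.434 CPM on average. Il1b (ENSMUSG00000027398.13, chr2:129364570-129371139) had 0 reads in all 4 non-senescent cultures, which allows up to 0.0260 CPM over the group by counting error alone, and 1 read in 1 senescent culture. When these 3 genes were tested without a filter on low counts, none passed, with adjusted p-values of 0.457 for Il1a, 0.421 for Il1b and 0.857 for Il6.

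**Figure D1:**
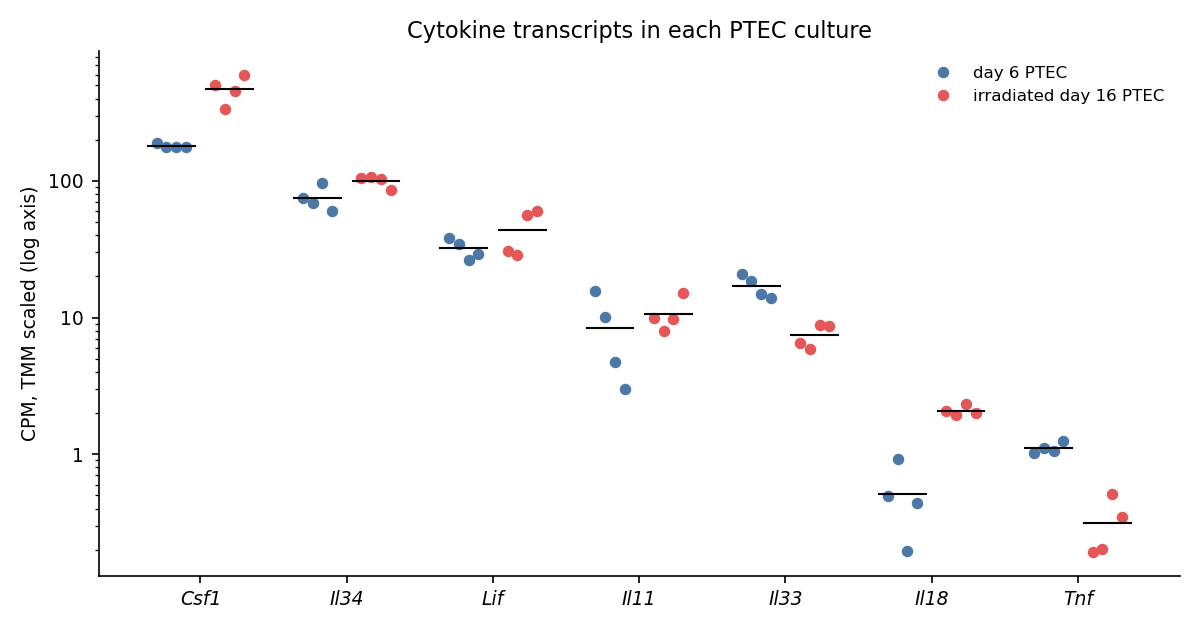
CPM of the 7 tested cytokine genes in each PTEC culture on a log axis, with points for cultures in replicate order and lines for group means of 4 cultures. The groups are apart for Csf1, Il33, Il18 and Tnf and overlap for Il34, Lif and Il11.

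The receptors and signalling genes of these cytokines were taken as 8 lists of 88 genes, of which 81 were tested in PTEC, with 8 called up and 13 called down. Beside the 20.1% and 19.7% of all tested genes, neither count stands above the background, and the counts by list below are to be read against the same shares. Their median log2 fold change was -0.18. Of 13 tested receptors and regulators of the interleukin-1 family, 1 rose and 4 fell. The interleukin-1 receptor gene Il1r1 was at 23.0 CPM on average in non-senescent and 9.32 CPM in senescent PTEC, a log2 fold change of -1.30 ± 0.228 (SE, adjusted p = 0.00159). The receptor antagonist gene Il1rn fell from 26.1 to 6.88 CPM, a log2 fold change of -1.92 ± 0.292 (SE, adjusted p = 0.000721). Sigirr, which encodes an inhibitory receptor of the family, fell with a log2 fold change of -2.06 (adjusted p = 0.00286), and the adaptor gene Myd88 was also called down at -0.53, a call kept in 6 of 8 fits that left out 1 culture. The kinase gene Irak2 rose by a log2 fold change of 0.58 (adjusted p = 0.00802). The accessory chain Il1rap had a log2 fold change of -0.16 (adjusted p = 0.613), the IL-33 receptor gene Il1rl1 one of -0.82 (0.183), the IL-18 receptor genes Il18r1 and Il18rap -0.60 (0.185) and -0.11 (0.853), and the IL-18 binding protein gene Il18bp -0.49 (0.211), none of which passed.

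Of 10 tested inflammasome and processing genes, Casp4 was called up and Pycard, Gsdmd and the sheddase gene Adam17 were called down. Pycard encodes the adaptor ASC and had a log2 fold change of -1.19 (adjusted p = 0.0130), and Casp4, which encodes an inflammatory caspase, one of 0.80 (0.0396). Gsdmd, the gene of the pore protein gasdermin D, was at -0.71 (0.0415). With 1 culture left out in turn, the call of Casp4 was kept in 2 of 8 fits, up to an adjusted p of 0.116 without senescent replicate 2, and that of Gsdmd in 1 of 8, up to 0.110 without senescent replicate 1. Of 10 tested ligands and receptors around interleukin-6, 3 rose and none fell. Clcf1, which encodes a ligand of this family, rose by 1.57 (adjusted p = 0.000421) and cardiotrophin-1 (Ctf1) by 1.06 (0.0223), the latter in 4 of 8 fits that left out 1 culture. Clcf1 was at 11 ± 2.15 CPM in non-senescent and 32.8 ± 7.65 CPM in senescent PTEC (SD, n = 4). The receptor genes Il6ra (-0.58, adjusted p = 0.184), Il6st (-0.25, 0.380), Lifr (-0.61, 0.191) and Il11ra1 (0.34, 0.203) were not called. Of 8 genes of JAK-STAT3 signalling, Socs3, a feedback inhibitor, and Bcl3 fell, with log2 fold changes of -1.12 (0.000890) and -1.47 (0.000181).

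Of 7 tested genes of colony stimulating factors and receptors, Csf2ra rose by 1.12 (adjusted p = 0.00498) and Ptprz1, which encodes a phosphatase that is an alternative receptor of IL-34, rose from 0.0898 ± 0.0693 to 3.02 ± 1.02 CPM (SD, n = 4), or on the log2 scale by 4.95 ± 0.485 (SE, adjusted p = 6.10e-05). The receptor of both CSF1 and IL-34, Csf1r, had a log2 fold change of -0.46 (adjusted p = 0.252). Of 10 tested TNF receptors and adaptors, 3 fell, Traf1 with a log2 fold change of -2.16 (0.000501), Birc3 with -0.68 (0.00310) and Traf2, called in 6 of 8 fits that left out 1 culture, with -0.59 (0.0178). The TNF receptor gene Tnfrsf1a was at 0.11 (0.535), and Tnfrsf1b at -0.44 (0.0431), under the fold threshold. Of 15 NF-κB and SASP regulators, Ikbkg rose and Nfkb2 fell, with log2 fold changes of 0.89 and -0.64 (adjusted p = 0.00270 and 0.0235), the latter in 4 of 8 such fits. The other calls in these lists were kept in all 8. Of the 8 genes of cytokine mRNA stability, 0 passed in either direction.

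**Figure D2:**
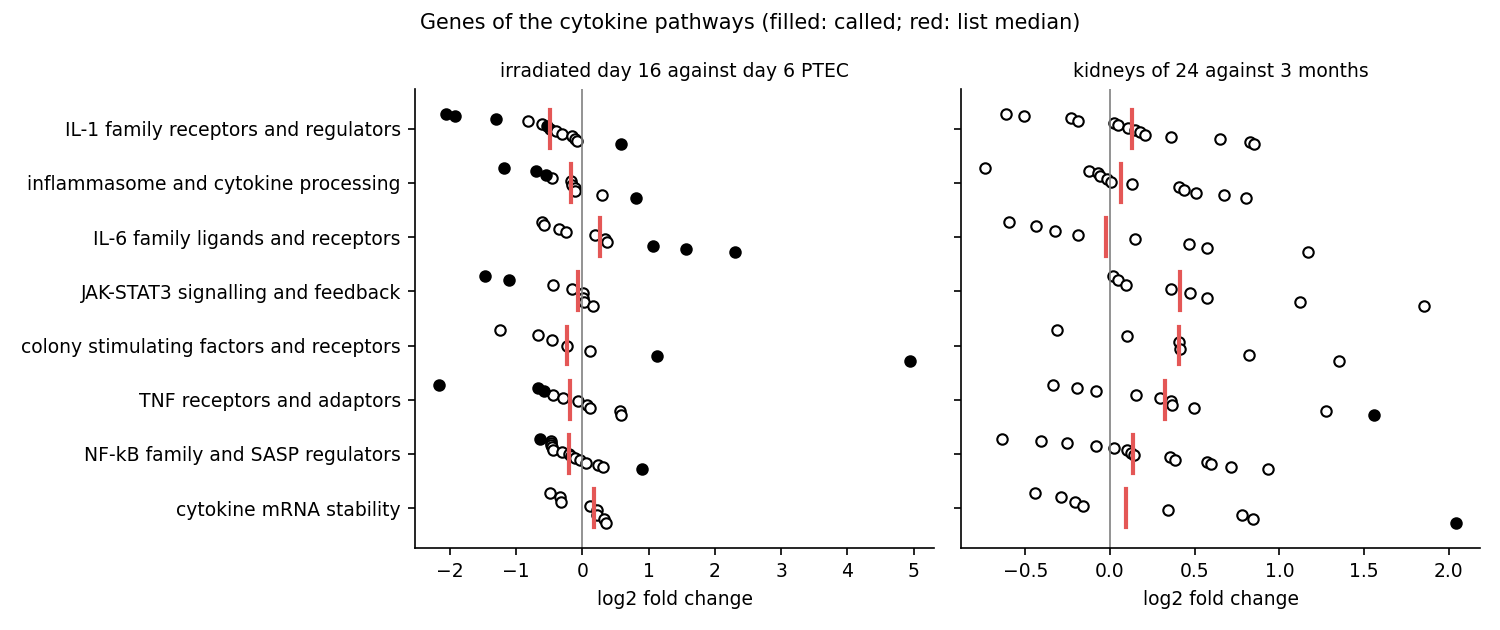
log2 fold change of the tested genes in 8 pathway lists, in PTEC on the left and in kidneys of 24 against 3 months on the right, filled where called, with the list median in red. In PTEC the called genes stand on both sides of 0, while in kidneys 2 genes were called.

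In kidneys, 1 of the 7 tested cytokine genes rose between 3 and 24 months and another between 3 and 12 months, and none was called down in any comparison of ages. Il1a, Il6 and Tnf were too low to be tested. Lif was up-regulated at 24 against 3 months, where 1.89% of all 17067 tested genes were called up and 0.451% down. Il34 was up-regulated at 12 against 3 months, where 1.22% were called up and 1.36% down. At 24 against 12 months 0 cytokine genes passed in edgeR, beside 0.896% called up and 0.434% called down among all genes. The unadjusted p of edgeR was under 0.05 for 3 of the 7 (Lif, Csf1 and Il18) and for 2602 of all 17067 tested genes. DESeq2 called 2 of these cytokines, Lif and Csf1. Among the 30029 genes with a read in any kidney, DESeq2 called 1.64% up and 0.952% down at 24 against 12 months, 2.42% and 1.03% at 24 against 3 months and 1.77% and 1.92% at 12 against 3 months. Deviations of 12- and 24-month kidneys correlated with r from 0.172 to 0.557 for the same replicate number and up to 0.270 for different numbers. A pairing by number is thus not established. A fit of these ages alone with the number as a block, chosen after the data were seen, called Lif up at 2.12 (adjusted p = 0.00430). It also called Csf1 up at 0.85 (0.0358) and Il18 down at -0.83 (0.0367). That fit called 7.77% of 16686 tested genes up and 5.41% down, whereas the block over all 9 kidneys called 0 of 17067 genes in this comparison. The median log2 fold change of the 7 cytokines in edgeR was 0.91 at 24 against 3 months, with single genes from -0.42 to 2.57. It was 0.38 at 12 against 3 months (-0.0409 to 1.32) and 0.88 at 24 against 12 months (-0.86 to 2.19). The median of all tested genes was between -0.00044 and 0.0044. The comparisons share kidneys, so their values are not independent. The 3-month kidneys were counted on another gene set than the 12- and 24-month kidneys and were sequenced less deeply, and neither can be told apart from age at 3 months.

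Lif was rare in young kidneys, with 6, 10 and 7 reads at 3 months, 13, 18 and 8 reads at 12 months and 55, 115 and 35 reads at 24 months. In CPM these were 0.158, 0.205 and 0.157, then 0.226, 0.296 and 0.154, and then 0.840, 1.75 and 0.538. All 24-month kidneys lay above all younger kidneys, replicate 2 the highest. Lif rose 5.92-fold from 3 to 24 months, a log2 fold change of 2.57 ± 0.494 (SE, adjusted p = 0.0331). At 24 against 12 months the log2 fold change was 2.19 ± 0.469 (SE, adjusted p = 0.0610), and at 12 against 3 months it was 0.38 ± 0.520 (SE, adjusted p = 0.821). The call of Lif at 24 against 3 months depended on which kidneys were in the fit. Leaving out 24-month replicate 3 or 3-month replicate 2 kept it (adjusted p = 0.0343 and 0.0479). It was lost without 3-month replicate 1 (log2 fold change 2.51, adjusted p = 0.167), 3-month replicate 3 (2.50, 0.118), 24-month replicate 1 (2.70, 0.0801) or 24-month replicate 2 (adjusted p = 0.0692). When the compared ages were fitted alone the log2 fold change was 2.56 and the adjusted p was 0.0665.

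Il34 was the most abundant of the cytokines in kidneys. It was at 15.3, 16.6 and 17.2 CPM at 3 months, 39.6, 28.8 and 38.7 CPM at 12 months and 32.8, 22.9 and 26.3 CPM at 24 months. Both older ages lay above the 3-month kidneys, and they overlapped each other. From 3 to 12 months Il34 rose by a log2 fold change of 1.12 ± 0.182 (SE, adjusted p = 0.0223). From 3 to 24 months the value was 0.74 ± 0.181 (SE, adjusted p = 0.0753), which did not pass in edgeR and passed in DESeq2 (adjusted p = 0.0150). From 12 to 24 months it was -0.39 ± 0.179 (SE, adjusted p = 0.353). The call at 12 against 3 months was kept without 12-month replicate 2 (0.0204) or 3-month replicate 2 (0.0276). It was lost without 3-month replicate 1 (log2 fold change 1.08, adjusted p = 0.118) or replicate 3 (1.16, 0.0651) and without 12-month replicate 1 (1.04, 0.0874) or replicate 3 (1.06, 0.0878). It was also lost with the compared ages alone (1.12, adjusted p = 0.0669) and with the replicate number as a block (1.10, adjusted p = 0.0591), although the numbers did not pair these ages. Gm15895, the antisense gene at the Il34 locus, was at 4.74 ± 1.27, 8.14 ± 2.01 and 4.2 ± 0.201 CPM (SD, n = 3) at 3, 12 and 24 months.

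Csf1 was at 5.46, 7.09 and 6.50 CPM at 3 months, 5.92, 6.46 and 7.81 CPM at 12 months and 15.8, 12.7 and 8.75 CPM at 24 months. The 24-month kidneys lay above all others, and the 3- and 12-month kidneys overlapped. The log2 fold changes of Csf1 were 0.97 ± 0.229 (SE, adjusted p = 0.0691) at 24 against 3 months, 0.88 ± 0.228 (SE, adjusted p = 0.109) at 24 against 12 months and 0.08 ± 0.228 (SE, adjusted p = 0.919) at 12 against 3 months. None passed in edgeR. DESeq2 called Csf1 at 24 against 3 months (adjusted p = 0.00819) and at 24 against 12 months (0.0214), and edgeR called it at 24 against 3 months without 24-month replicate 3 (1.16, adjusted p = 0.0476). Per kilobase of exon, Csf1 was 0.133 to 0.158 times the level of Il34 in the 3-month kidneys, 0.0555 to 0.0833 times in the 12-month kidneys and 0.124 to 0.206 times in the 24-month kidneys.

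The interleukin-1 family varied among kidneys of one age. Il33 was at 2.57, 3.28 and 5.11 CPM at 3 months, 6.68, 12.8 and 7.87 CPM at 12 months and 7.16, 6.73 and 3.93 CPM at 24 months. The 12-month kidneys lay above the 3-month kidneys, with a log2 fold change of 1.32 ± 0.354 (SE, adjusted p = 0.0905), and DESeq2 called it (adjusted p = 0.0117). Il18 was at 2.10, 1.62 and 2.81 CPM, 2.71, 3.96 and 2.22 CPM and 1.45, 1.73 and 1.70 CPM at the 3 ages. Its 24-month kidneys lay below its 12-month kidneys, with a log2 fold change of -0.86 ± 0.279 (SE, adjusted p = 0.187). Bco2, at the same locus on the other strand, was at 17.3 ± 2.21, 23.6 ± 3.08 and 13.9 ± 1.69 CPM (SD, n = 3) in these groups. Il1b at the same ages was at 0.761, 0.553 and 1.87 CPM, 0.781, 1.68 and 0.849 CPM and 3.59, 3.13 and 0.875 CPM. The highest 3-month kidney, replicate 3, exceeded the lowest 24-month kidney, also replicate 3. The log2 fold change of Il1b at 24 against 3 months was 1.25 ± 0.611 (SE, adjusted p = 0.308). Without 3-month replicate 3 it was 1.95 (adjusted p = 0.250), and without 24-month replicate 1 it was 0.92 (0.685).

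The remaining cytokines were near the limit of counting. Il11 had 7, 8 and 5 reads at 3 months, 4, 9 and 12 at 12 months and 19, 32 and 6 at 24 months, with a log2 fold change of 0.91 ± 0.632 (SE, adjusted p = 0.431) at 24 against 3 months. Tnf had 5, 2 and 4, then 4, 11 and 5, and then 8, 13 and 2 reads. Il6 had 2, 0 and 5, then 0, 2 and 1, and then 0, 7 and 0 reads, and Il1a 0, 0 and 1, then 0, 1 and 1, and then 4, 1 and 1. Without a filter on low counts, their adjusted p-values at 24 against 3 months were 0.773 for Tnf, 0.883 for Il6 and 0.600 for Il1a.

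Markers of other cells also differed among the kidneys. The sum of 8 pan-leukocyte markers was 47.4 to 69.5 CPM at 3 months, 71.8 to 88.7 CPM at 12 months and 78.8 to 113 CPM at 24 months, with 1 of 8 called up at 24 against 3 months. The sum of 10 macrophage markers was 101 to 189, 142 to 184 and 152 to 208 CPM, with 1 of 10 called up. Of T and NK cell markers 3 of 8 were called up at 24 against 3 months and 1 of 8 at 12 against 3 months. The sum of 7 B and plasma cell markers was 5.72 to 10.4, 26.4 to 106 and 57.0 to 394 CPM, with 3 of 7 called up at 24 and 1 of 7 at 12 against 3 months. The sum of 9 fibroblast and pericyte markers was 159 to 172, 170.3 to 177 and 219 to 272 CPM, with 0 of 9 called. The sum of 5 principal cell markers was 468 to 904, 233 to 275 and 294 to 428 CPM, with 1 of 5 called down at 24 and 2 of 5 at 12 against 3 months. Of general epithelium markers 2 of 6 were called down at 12 against 3 months, and of proximal tubule markers 2 of 10 were called up at 24 against 3 months. Summed, however, the 10 proximal tubule markers were at 44547 to 45869, 47247 to 49431 and 37076.5 to 41624 CPM, lowest at 24 months. The sum of 8 endothelium markers was 203 to 275, 320.0 to 331 and 205 to 343 CPM, with 0 of 8 called. The sum of 6 neutrophil markers was 0.451 to 11.1, 1.01 to 2.30 and 1.98 to 15.6 CPM, highest in 3-month replicate 3, 12-month replicate 2 and 24-month replicates 1 and 2, and the same kidneys were highest for Il1b within their age. The 10 immediate early and heat shock genes summed to 103 to 223, 66.3 to 82.2 and 151 to 1078 CPM. Of these, 2 were called up at 24 against 3 months, 2 down at 12 against 3 months and 1 up at 24 against 12 months. At 24 months their sum was 1078, 329 and 151 CPM in replicates 1 to 3, the order in which Csf1, Il1b, Il33 and Zfp36 also stood. At 3 months their sum was 223, 103 and 202 CPM in replicates 1 to 3, the reverse of the order of Csf1. No gene of the other lists named here was at 0 at any age, and 1 neutrophil marker was at 0 at 12 months. The counts of calls in these lists are to be read against the shares over all tested genes given above. The part of these cells and genes in the values of Lif, Il34, Csf1, Il33 and Il1b was not tested.

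**Figure D3:**
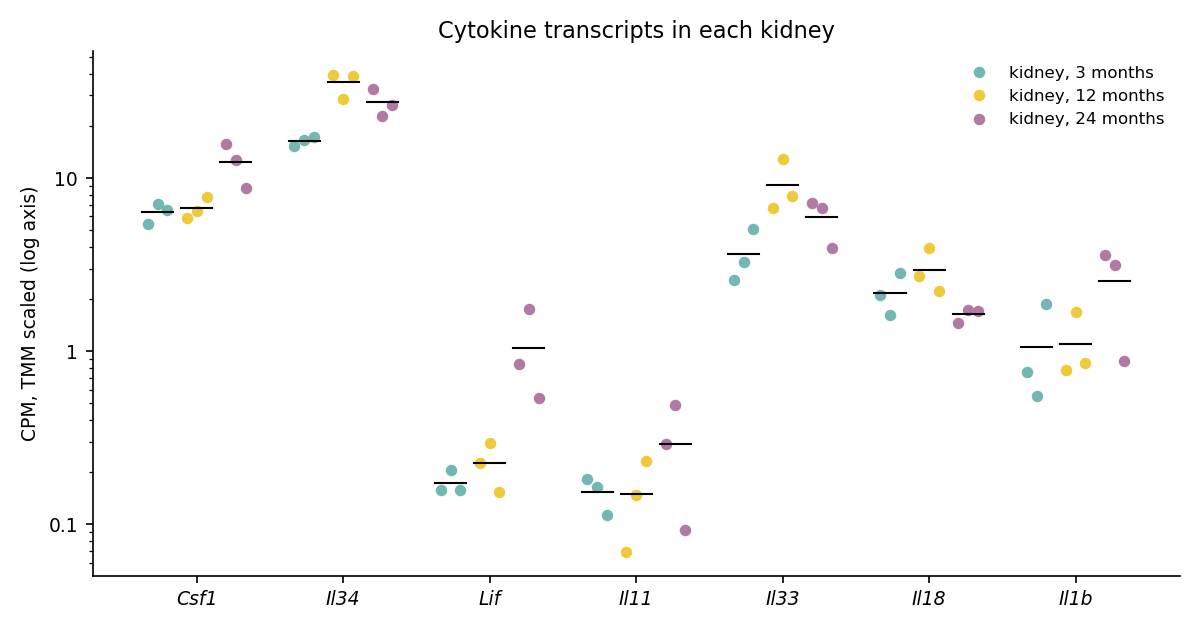
CPM of the 7 tested cytokine genes in each kidney on a log axis, with points for kidneys in replicate order and lines for means of 3 kidneys. Lif and Csf1 are highest in the 24-month kidneys, and Il34 is lower in the 3-month kidneys than in all older ones.

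Of the 88 receptor and signalling genes, 80 were tested in kidneys. The shares called over all genes were 1.89% up at 24 against 3 months, 1.36% down at 12 against 3 months and 0.434% down at 24 against 12 months, and the 1 or 2 genes called here are too few to be set apart from them. At 24 against 3 months 2 rose, the TNF receptor gene Tnfrsf1b and Zfp36, which encodes tristetraprolin, a protein that destabilizes cytokine mRNAs. Tnfrsf1b was at 2.05 ± 0.333 CPM at 3 months, 4.5 ± 0.532 CPM at 12 months and 6.05 ± 2.0 CPM at 24 months (SD, n = 3), and from 3 to 24 months rose by 1.56 ± 0.257 (SE, adjusted p = 0.0188) on the log2 scale. Zfp36 was at 19.7, 21.3 and 14.6 CPM at 3 months and 134, 55.8 and 39.7 CPM at 24 months, with a log2 fold change of 2.04 ± 0.429 (SE, adjusted p = 0.0471). At 12 against 3 months 2 genes fell, Il1rn with a log2 fold change of -2.27 ± 0.449 (SE, adjusted p = 0.0375) and Elavl1, which encodes the mRNA-stabilizing protein HuR, with one of -0.77 ± 0.134 (SE, adjusted p = 0.0278). Il1rn was at 0.394, 0.225 and 0.427 CPM at 3 months and 0.0867, 0.0822 and 0.0386 CPM at 12 months. At 24 against 12 months 1 gene fell, the NF-κB kinase gene Chuk, with a log2 fold change of -0.67 ± 0.123 (SE, adjusted p = 0.0402). With 1 kidney left out in turn, these calls were kept in 4 of 6 fits for Tnfrsf1b, in 1 of 6 each for Zfp36, Il1rn and Elavl1, and in 0 of 6 for Chuk, with the highest adjusted p of the first 4 reached without 3-month replicate 1 (0.105, 0.190, 0.151 and 0.133) and that of Chuk without 24-month replicate 1 (0.166). The receptors of the cytokines that were called did not pass. Lifr had a log2 fold change of -0.19 (adjusted p = 0.452) and Il6st of 0.46 (0.389) at 24 against 3 months, and Csf1r of 0.41 (0.662) at 12 against 3 months.

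**Figure D4:**
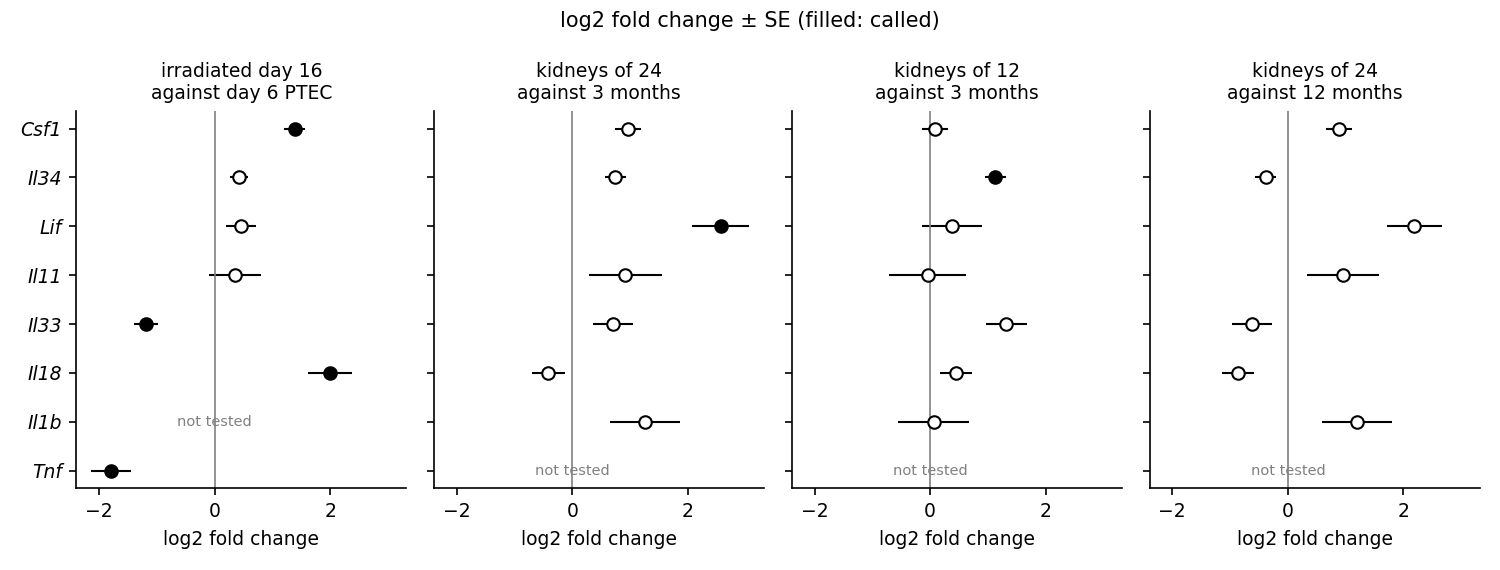
log2 fold change of each cytokine gene in the 4 comparisons, with bars of 1 standard error and filled points where the gene was called. Csf1, Il18, Il33 and Tnf are filled in PTEC, Lif at 24 against 3 months and Il34 at 12 against 3 months.

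To set the genes against each other, levels were also scaled over all 17 libraries together and divided by exon length, as CPM per kilobase. These levels are a description with no test. Il34 was at 30.5 ± 6.12 CPM per kilobase and Csf1 at 27.2 ± 1.21 (SD, n = 4) in non-senescent PTEC, where their ranges overlapped. In senescent PTEC Csf1 came first at 69.8 ± 16.1, above Il34 at 40.2 ± 4.26 with no overlap. In kidneys Il34 came first at every age, at 10.3 ± 0.673, 22.7 ± 3.76 and 17.2 ± 3.08 CPM per kilobase (SD, n = 3) from the youngest to the oldest. Csf1 followed Il34, Il18 and Il33 at 3 and 12 months, at 1.48 and 1.59, and at 3 months its range overlapped that of Il33. It came second at 24 months, at 2.89, where its range again overlapped that of Il33. Lif and Il11 were higher in cultures than in kidneys. Lif was at 5.86 and 7.89 CPM per kilobase in the PTEC groups and at most 0.296 in the kidney groups, and Il11 was at 3.20 and 4.01 against at most 0.172. Non-senescent PTEC held 120-fold the Lif, 35.3-fold the Il11 and 18.3-fold the Csf1 of 3-month kidneys, or 182-, 53.6- and 27.9-fold without TMM factors. Il1b was higher in kidneys, at 0.687, 0.721 and 1.64 CPM per kilobase from 3 to 24 months. Its mean was 0.00341 in senescent PTEC, from 1 read in 1 culture at 0.0136, and non-senescent PTEC had 0 reads. Il18 was lowest in non-senescent PTEC, at 0.395 ± 0.230, while its range in senescent PTEC, at 1.58 ± 0.142, overlapped that of 24-month kidneys, at 1.95 ± 0.195. For Il33 every pair of neighbours in the order of the 5 groups overlapped. Tnf, Il1a and Il6 were under 1 CPM per kilobase in all 5 groups.

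**Figure D5:**
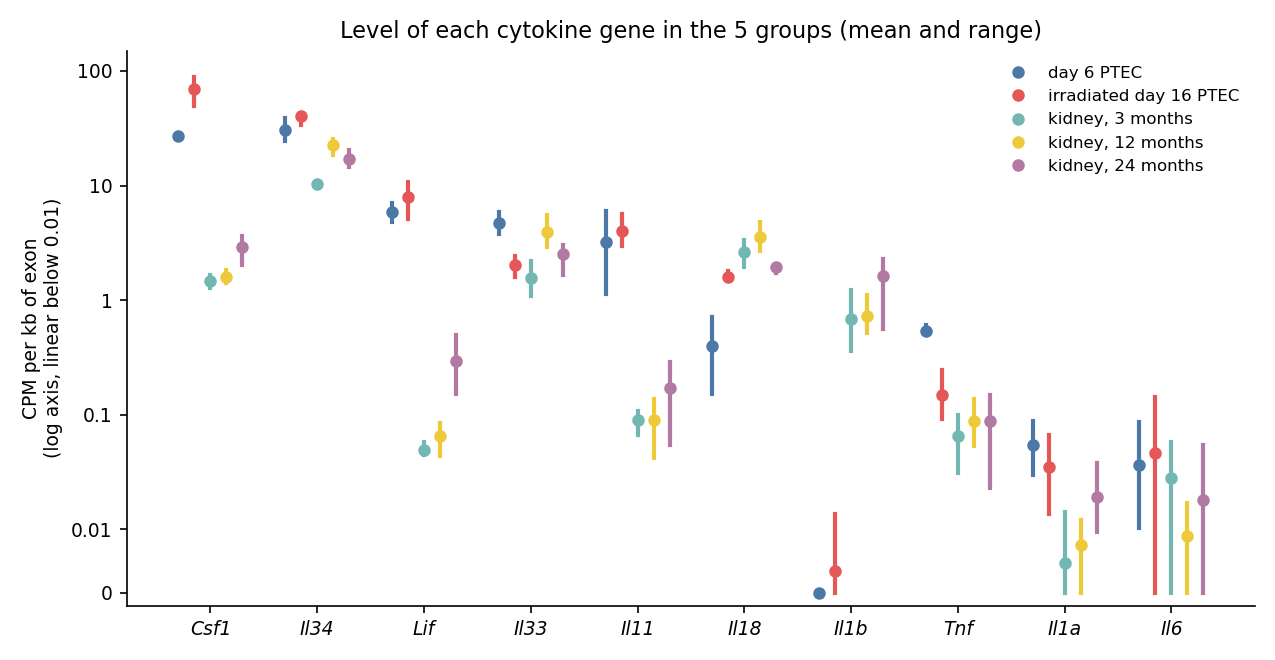
Level of each cytokine gene in CPM per kilobase of exon, on a log axis that is linear below 0.01, with points for group means and bars from the lowest to the highest library. Csf1, Lif and Il11 are higher in both PTEC groups than in kidneys, and Il1b is higher in kidneys.

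For each cytokine with a mean of at least 1 CPM in a group, the genes whose log2 CPM was most alike were named by Pearson's r, as a description. Over the 8 PTEC cultures, against 13363 genes (13364 for Tnf), Csf1 was closest to Prrt4 (r = 0.993), Ccdc80 (0.992) and Pcsk6 (0.991), Il18 to Axin2 (0.993), Ces2g and Hdac9 (both 0.992) and Il33 to Dusp7 (0.996), Il5ra (0.993) and Tdg (0.992). Tnf was closest to Fam84a (0.996), Mal2 (0.994) and Cd9 (0.991), Il34 to Grb2 (0.996), Eapp (0.983) and Yipf5 (0.981), Lif to Ajuba (0.964), F3 (0.961) and Fbln2 (0.941), and Il11 to Gtf2e1 (0.986), Hspa4 (0.983) and Dusp4 (0.983). Over the 9 kidneys, against 13318 genes (13319 for Lif, which passed 1 CPM at 24 months only), Lif was closest to Cdc20 (0.968), Gatm (0.964) and Cdca3 (0.956), Csf1 to Ncapg2 (0.953), Jun (0.948) and 9430085M18Rik (0.948) and Il34 to Bcl2l11 (0.961), Eps8l3 (0.952) and Dus2 (0.951). Il1b was closest to Apold1 (0.987) and Osmr (0.929), Il18 to Tctex1d2 (0.990), Brdt (0.983) and Fcho2 (0.981), and Il33 to B3gnt9 (0.978), Cxcl14 (0.967) and Lhfp (0.960). The libraries of a group share its treatment or age, and these values of r carry the difference between groups.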

How the data were processed

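RNA of 8 PTEC cultures and 9 kidneys was measured. Per the labels and the methods, the authors made directional poly(A) libraries, ran the nf-core/rnaseq pipeline on GRCm38 with GENCODE M18 and deposited one raw count per gene and sample; the pipeline's aligner, counter and strand setting are not given in the sources used here. Identifiers were matched without version to symbols and positions of GENCODE M21. PTEC and kidneys were fitted apart in R 4.3.3 with edgeR 4.0.16 (TMM, filterByExpr, robust quasi-likelihood test, Benjamini-Hochberg adjustment over all tested genes), the 3 ages in one fit over 53772 shared identifiers. SE is the absolute log2 fold change over the square root of F. DESeq2 1.42.0, other scalings, filters, thresholds, a replicate block and left-out libraries were alternatives. The 10 genes and all lists were chosen with earlier results of these data known. Named genes are all members, their receptors and inhibitors, up to 3 called genes per list by absolute log2 fold change, and the 3 genes most like a member (log2 CPM, prior count 2, mean of at least 1 CPM). Irak2, Myd88 and Adam17, and genes overlapping a member, lie outside this rule and were chosen after their values were seen. Some genes that the rule names are not reported here. Deviations from group means correlated between same-numbered PTEC cultures with r from 0.186 to 0.614. Between same-numbered 12- and 24-month kidneys r was from 0.172 to 0.557. Some differently numbered libraries reached similar values. They include non-senescent replicate 2 with senescent replicate 1 (0.265) and 12-month replicate 3 with 24-month replicate 1 (0.270). The number served as a block in alternative fits, but the sample titles do not otherwise link these libraries, and a pairing is not established. Same-numbered values with 3-month kidneys were negative, while 3-month replicate 3 with 12-month replicate 2 reached 0.747. Replicates differed beyond counting error in all 21 pairs (chi-square per gene from 17.0 to 341).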

Additional observations from a re-analysis of the deposited data

Results flagged for a closer look

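The 4 cultures of a PTEC group were compared for 49 pairs of a group and a gene, cytokines and their receptors, and in 4 of these 1 culture stood apart from the rest. Chance gives about 1 in 20. Il34 in senescent PTEC was lowest in replicate 4, at 85.6 CPM, with the next culture at 104 CPM. Il1r1 in non-senescent PTEC was lowest in replicate 3, at 13.5 CPM, with the next at 25.1 CPM. Lifr in non-senescent PTEC was highest in replicate 4, at 39.8 CPM, with the next at 16.6 CPM. Il1b in senescent PTEC was at 0.0335 CPM in replicate 2, which is 1 read, and at 0 in the others.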

How the results depend on the processing

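The 2 rises and 2 falls in PTEC kept their number under all alternatives run, except that a filter of a mean of 1 CPM removed Tnf and left 1 fall, and that leaving out 1 culture in turn gave 2 to 3 rises and 2 falls. With the replicate block, PTEC again had 2 rises and 2 falls. At 24 against 3 months the 1 rise became 0 with the filter of a mean of 1 CPM, which removed Lif, 0 with the compared ages alone, 3 with DESeq2 and 0 to 2 with 1 kidney left out. At 12 against 3 months the 1 rise became 0 with the replicate block, 0 with the compared ages alone, 2 with DESeq2 and 0 to 1 with 1 kidney left out. At 24 against 12 months the 0 rises became 1 with a filter of at least 1 count and 2 with DESeq2. There, a block by replicate number over 12- and 24-month kidneys alone was chosen after seeing the data. It gave 2 rises, Lif and Csf1 (adjusted p = 0.00430 and 0.0358), and 1 fall, Il18 (0.0367). Beside these, 7.77% and 5.41% of all genes were called up and down. The block over all 9 kidneys gave 0 and 0, and 0 calls among all genes. The direction of values near 0 at 12 against 3 months turned: Il1b was at -0.0184 with the replicate block and from -0.38 to 0.75 with 1 kidney left out, Il11 from -0.48 to 0.30 and Csf1 from -0.0383 to 0.17. The causes were not tested. Of 426 values of single cytokines under an alternative, 395 kept direction and call. Without TMM scaling, 17 of 50 group levels per kilobase moved by more than their SD. Depth limits Il1a, Il6, kidney Tnf and PTEC Il1b, where a few reads decide a value.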
